A study of Mus musculus with 8 samples.

Results

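The mitochondrial genome of the mouse was represented by 37 rows of the deposited table, of 54091 rows in all. They were taken by name, as the rows that begin with mt- or that carry 1 of the names ND1 to ND6, ND4L, COX1 to COX3, CYTB, ATP6 and ATP8. They comprise 13 protein-coding genes, 2 rRNAs and 22 tRNAs, which are the full gene content of that genome. In the annotation (GENCODE M21, build GRCm38) 28 of them are coded on the plus strand of the sequence and 9 on the minus strand, namely ND6 and 8 tRNAs.

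RNA was sequenced from the white part of the quadriceps, a thigh muscle, of 8 chow-fed male mice aged 11 to 14 weeks, with the tissue taken in the morning. The 4 Cre libraries come from mice labelled CKM Cre, with Acot2 knocked out in muscle, and the 4 Loxp libraries from mice labelled Loxp/Loxp. CKM is the promoter of muscle creatine kinase, so the deletion is made in muscle fibres, and other cells of the tissue keep the gene. No mouse with the recombinase alone is analysed here, so an effect of the recombinase itself and of the loss of Acot2 cannot be told apart. Beyond a number that ends each title, the labels do not say how the animals were taken, and p-values measure the spread between these 8 samples. Acot2, a thioesterase of the mitochondrial matrix that releases fatty acids from their long-chain CoA esters, averaged 47.3 ± 5.03 normalized reads in Cre libraries and 213 ± 45.9 in Loxp libraries (SD, n = 4 each). A normalized read is a read divided by 1 factor per library. Where a value is given for each library of a group, the values follow replicates 1 to 4. The libraries held 30415429 to 48834283 reads. Ckm, Acta1 and Tnnt3, which mark skeletal muscle, were high in every library, with a sum of 1712793 to 2072310 normalized reads in Cre libraries and 1805903 to 2086529 in Loxp libraries.

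Mitochondrial DNA is copied into long RNAs that run through many genes on each strand. In most places a tRNA lies between the neighbouring genes, and excision of the tRNAs by RNase P and ELAC2 frees the mRNAs and rRNAs, whose levels then depend on how fast each is degraded. The protein-coding genes make core subunits of the respiratory chain: the ND genes of complex I, CYTB of complex III, COX1 to COX3 of complex IV, and ATP6 and ATP8 of the ATP synthase. In skeletal muscle the content of mitochondria differs by fibre type, being low in the glycolytic fibres that make up most of the white quadriceps.

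A few stretches of sequence bear on what the levels below can mean, and they are credited to GENCODE M21 on GRCm38. ATP8 and ATP6 overlap, with the end of ATP8 lying inside the start of ATP6. The first line below shows the junction with the 43 shared bases in capitals (chrM:7915-7981, plus strand). The other lines show mitochondrial genes above a copy of the same bases in chromosome 1, on its minus strand, with the bases that differ in capitals. The stretch of COX1 lies at chrM:6381-6441, that of Gm29216 at chr1:24616137-24616197. The stretch of ND3 lies at chrM:9459-9518, that of Gm28438 at chr1:24613060-24613119. The stretch of COX2 lies at chrM:7013-7072, that of Gm28661 at chr1:24615506-24615565.
ATP8 and ATP6 overlap: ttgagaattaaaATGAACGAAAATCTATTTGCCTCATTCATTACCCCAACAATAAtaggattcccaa
COX1: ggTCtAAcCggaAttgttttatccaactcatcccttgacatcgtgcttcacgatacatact
Gm29216: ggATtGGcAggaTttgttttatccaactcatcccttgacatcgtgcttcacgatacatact
ND3: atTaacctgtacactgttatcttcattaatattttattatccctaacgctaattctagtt
Gm28438: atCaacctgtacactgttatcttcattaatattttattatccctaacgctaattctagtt
COX2: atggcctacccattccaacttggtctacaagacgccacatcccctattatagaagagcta
Gm28661: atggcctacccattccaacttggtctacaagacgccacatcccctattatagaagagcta

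The chromosome 1 copy is a run of 7 genes annotated as unprocessed pseudogenes at chr1:24611535-24616197, 4663 bases on the minus strand. They lie in the same order as the mitochondrial genes from the last part of COX1 to the first part of ND4. Over 4149 aligned bases the 7 pseudogenes differed from the mitochondrial sequence at 7 positions, 6 of them at the start of Gm29216 as printed above. The remaining one is T3C in Gm28438, counted from the first base of ND3, with the base of ND3 first. The other 5 pseudogenes were identical to the mitochondrial genes over their whole length. Of the 37 mitochondrial genes, 11 lie wholly within the span that this copy covers, namely the protein genes COX2, ATP8, ATP6, COX3, ND3 and ND4L and 5 tRNAs. COX1 has 492 of its 1545 bases in that span and ND4 has 876 of its 1378. The sources used here do not say how reads that match both places were counted.

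**Figure D1:**
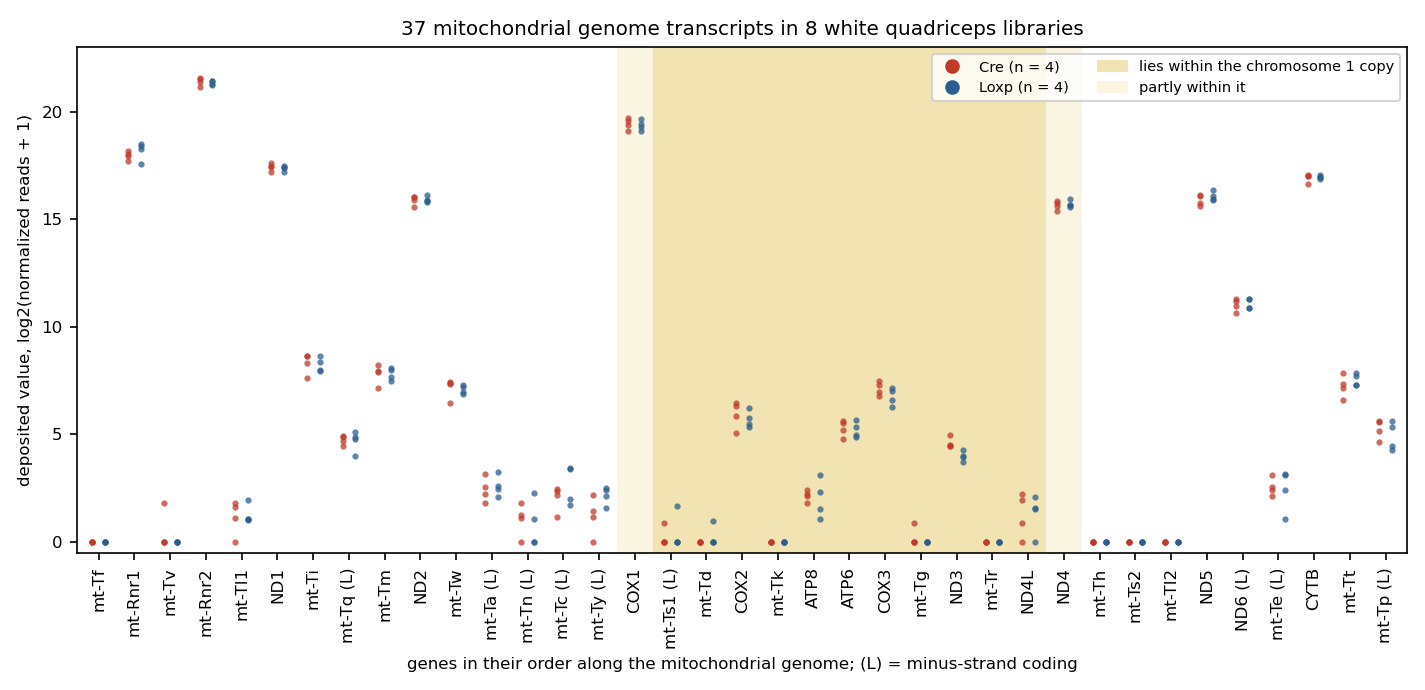
Deposited values, log2(normalized reads + 1), of all 37 mitochondrial transcripts in their order along the genome, with 1 point per library, Cre (red) left of Loxp (blue) and n = 4 each; shading marks genes wholly or partly within the chromosome 1 copy. The 6 protein genes in the dark band reach 176 normalized reads at most, while the other 7 protein genes start at 1573.

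The levels of the protein-coding transcripts fell into separate ranges according to that span. Levels are given here as normalized reads per kilobase of annotated length, as the mean ± SD over all 8 libraries. COX1, the catalytic subunit of cytochrome c oxidase (chrM:5328-6872), was the highest of the 13, at 451599 ± 73448 normalized reads per kilobase. It was followed by ND1, a subunit of the membrane arm of complex I (chrM:2751-3707), at 180127 ± 17933, and by CYTB, the cytochrome b of complex III (chrM:14145-15288), at 110117 ± 10208. Each of these 3 lay above the next in 8 of 8 libraries. Further complex I subunits of the membrane arm came after them. ND2 had 58751 ± 6254 normalized reads per kilobase, ND4 38261 ± 4524 and ND5 35950 ± 5804. ND4 exceeded ND5 in 7 of 8 libraries, by a ratio of means of 1.06, so the order of this pair did not hold in every library. ND6, also of complex I and the only protein gene on the minus strand (chrM:13552-14070), stood lower at 4117 ± 686. Its 3′ end overlaps the 3′ end of ND5 on the other strand.

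The 6 protein genes inside the copied span were all far below these. COX3, a structural subunit of complex IV, had 160.2 ± 41.1 normalized reads per kilobase, and COX2, the subunit that takes electrons from cytochrome c, had 84.5 ± 28.7. ATP6, the proton channel subunit of the ATP synthase, had 55.7 ± 13.2 and ND3, a small complex I subunit, had 55.6 ± 16.7, and ATP6 was the higher of the pair in 5 of 8 libraries. ATP8, a short subunit of the ATP synthase, had 17.5 ± 9.55. ND4L, the smallest subunit of complex I encoded here, had 6.11 ± 4.78 normalized reads per kilobase and was at 0 to 4 reads in each library. Between ND6 and COX3 the ratio of means was 25.7, and it was the largest step in the order of the 13 genes. COX1 and COX3 code for subunits of the same complex and lie on the same strand, yet COX1 had between 498353 and 1087485 reads in each library and COX3 between 68 and 218.

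Shared sequence was then measured for every member, as the share of its 50-base stretches that also occur in an annotated transcript of another gene. It was 635 of 635 stretches for COX2, and 99.9% for COX3, 99.5% for ATP6, 98.8% for ND4L and 98.0% for ND3. ND4 and COX1, which reach only in part into the span, had 62.2% and 51.1%. COX1 also matches pseudogenes elsewhere, mainly Gm13340 on chromosome 2. ND2 had 8.19%, ND5 7.61%, mt-Rnr2 1.04%, and ND1, CYTB, ND6 and mt-Rnr1 none. The 5 genes that share nearly all stretches were all among the 6 lowest protein genes. ATP8 was the exception, with 0% shared and a low level. Its place in the chromosome 1 copy is chr1:24614609-24614812. The 43 bases that it shares with ATP6 fall within Gm10925 there, fewer than the 50 searched, and the rest lies between annotated pseudogenes and was not covered by this search of transcripts.

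**Figure D2:**
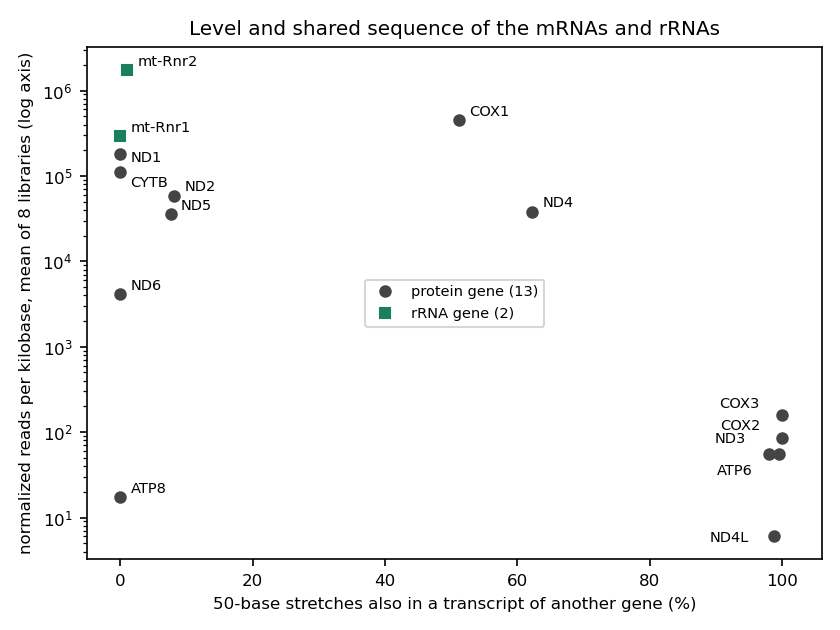
Share of 50-base stretches found in a transcript of another gene (x axis, %) against the mean level in 8 libraries (y axis, normalized reads per kilobase, log axis) for the 13 protein genes (circles) and 2 rRNAs (squares). The 5 genes at 98.0% or more lie at 160.2 normalized reads per kilobase or less, with ATP8 low at 0% shared.

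If only positions whose 50 bases occur in no other transcript are counted as length, the level of COX1 was 954474 ± 155236 normalized reads per 1000 such positions. ND4 then had 105027 ± 12419 and ND2 67162 ± 7150, and ND4 lay above ND2 in 8 of 8 libraries, the reverse of their order by annotated length. CYTB remained above ND4 in 8 of 8 libraries, at 115045 ± 10665, with a ratio of means of 1.10. With 100 bases in place of 50, COX1 had a mean of 697720 and ND4 again 105027, so the value for COX1 depends on the stretch length. The 5 genes with nearly all stretches shared have 6 unshared positions or fewer, too few for a level.

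The pseudogenes themselves received few reads. ND3 had a mean of 19.4 normalized reads over 8 libraries, against 273 for its copy Gm28438, the highest of the 7, and Gm28438 exceeded ND3 in 8 of 8 libraries. ND4L had a mean of 1.81 against 24.5 for its copy Gm10222, and it too was below its copy in every library. For COX2, ATP6 and COX3 neither row was the higher one throughout. COX2 lay above Gm28661 in 6 of 8 libraries, ATP6 above Gm10925 in 5 and COX3 above Gm28437 in 3. Gm29216 and Gm28439, which match parts of COX1 and ND4, had means of 98.5 and 8.36 normalized reads. Summed over the 6 protein genes of the span, the level was 159 to 341 normalized reads per library, and summed over the 7 pseudogenes it was 439.8 to 839. Both sums were below the level of any single protein gene that lies wholly or partly outside the span, the lowest being ND6 with 1573 normalized reads in Cre replicate 1. Values of these genes and of their copies, fold changes included, are uncertain wherever they are given. How reads that match both were counted is not known, so adding the copy to the gene does not settle the level.

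The rRNAs supplied most mitochondrial reads. mt-Rnr2, the 16S rRNA of the large subunit of the mitochondrial ribosome (chrM:1094-2675), made up 65.9% ± 1.56 of all mitochondrial reads in Cre libraries and 64.5% ± 1.61 in Loxp libraries (SD, n = 4 each). It ranked 3 among all genes by mean normalized reads, and COX1 ranked 7. mt-Rnr1, the 12S rRNA of the small subunit (chrM:70-1024), made up 6.05% ± 0.415 of mitochondrial reads in Cre libraries and 7.36% ± 1.84 in Loxp libraries. Protein-coding transcripts gave 28.1% ± 1.77 in Cre libraries and 28.2% ± 3.29 in Loxp libraries, and the tRNAs together gave 0.0220% ± 0.00266 in Cre libraries and 0.0226% ± 0.00209 in Loxp libraries. The 16S and 12S rRNAs lie next to each other on the same strand with only mt-Tv between them, and a ribosome holds one of each. Per kilobase, mt-Rnr2 stood 6.59 ± 0.435 times as high as mt-Rnr1 in Cre libraries and 5.56 ± 1.46 times as high in Loxp libraries. The 8 libraries ran from 4.21 to 7.62, and both extremes were Loxp libraries. The sources used here do not say whether or how rRNA was removed from the total RNA.

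**Figure D3:**
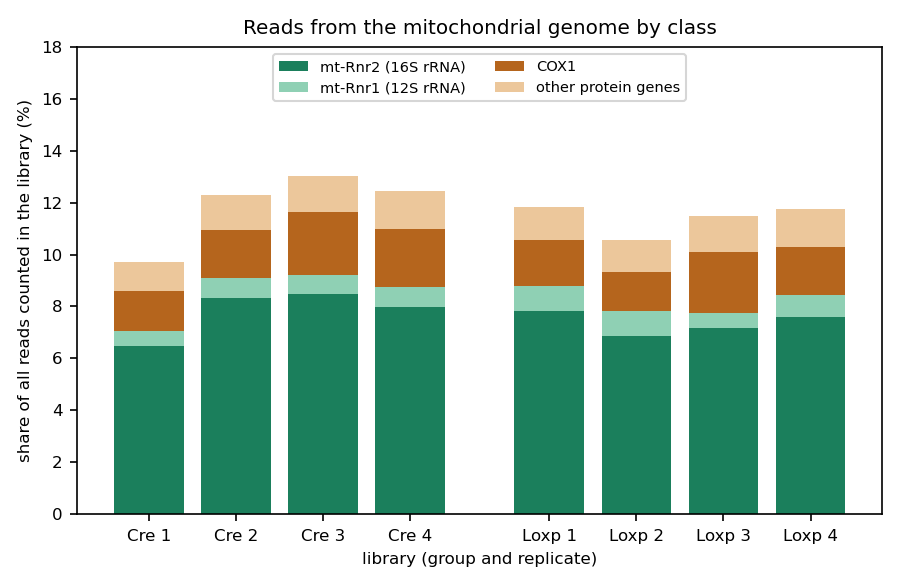
Share of all counted reads (y axis, %) from the 16S rRNA, the 12S rRNA, COX1 and the other protein genes in each library, Cre replicates left and Loxp replicates right. The whole bar is 9.70% in Cre replicate 1 and 13.0% in Cre replicate 3, the lowest and the highest of the 8 libraries.

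Together, the 37 transcripts took 9.70%, 12.3%, 13.0% and 12.5% of all reads in the Cre libraries, and 11.9%, 10.5%, 11.5% and 11.8% in the Loxp libraries. The groups overlapped, and their means were 11.9% ± 1.48 in Cre and 11.4% ± 0.597 in Loxp libraries. Protein-coding transcripts alone took 3.34% ± 0.538 in Cre and 3.22% ± 0.444 in Loxp libraries. In bulk tissue, fewer cells of a type and less RNA per cell cannot be told apart, and the same holds for fewer mitochondria and less RNA in each. COX1 gave 59.9% ± 2.52 of the reads of the 13 protein genes in Cre libraries and 58.1% ± 3.27 in Loxp libraries.

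The tRNAs were of interest because most were nearly absent while a few were well counted. Of the 22 tRNAs, 6 had no read in any library (mt-Tf, mt-Tk, mt-Ts2, mt-Th, mt-Tr and mt-Tl2). A count of 0 allows up to 3 reads per library, which is 2.12 to 3.66 normalized reads depending on the library. For such short RNAs it limits reads in these libraries and not the tRNA in the tissue. The 4 most abundant tRNAs gave 87.4% to 94.5% of all tRNA reads in a library. They are printed 5′ to 3′ with the anticodon in capitals, since they carry the tRNA signal, and lie on the plus strand at chrM:3706-3774, chrM:3845-3913, chrM:15289-15355 and chrM:4950-5016 in the order shown.
mt-Ti: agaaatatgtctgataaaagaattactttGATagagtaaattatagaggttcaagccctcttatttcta
mt-Tm: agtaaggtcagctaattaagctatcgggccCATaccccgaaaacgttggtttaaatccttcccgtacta
mt-Tt: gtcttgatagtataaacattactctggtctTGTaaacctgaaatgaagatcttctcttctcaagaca
mt-Tw: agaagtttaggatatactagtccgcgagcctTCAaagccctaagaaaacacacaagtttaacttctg

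mt-Ti, which carries isoleucine, had 199, 402, 314 and 398 normalized reads in Cre libraries, against 332, 242, 250.2 and 395 in Loxp libraries. mt-Tm, the methionine tRNA, had 141, 237, 246 and 293 in Cre libraries, against 180.0, 203, 269 and 251 in Loxp libraries. The Cre and Loxp values overlap for both. Per kilobase, mt-Ti had 4587 ± 1153 normalized reads over all libraries and mt-Tm 3296 ± 724, with mt-Ti higher in 7 of 8 libraries. mt-Tt for threonine followed with 2560 ± 695 and mt-Tw for tryptophan with 2099 ± 439, and mt-Tt lay above mt-Tw in only 5 of 8. ND1 ends where mt-Ti begins and ND2 lies just after mt-Tm, yet ND1 had 180127 normalized reads per kilobase, far above either tRNA.

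These 4 tRNAs share a feature of position. Each has at least 50 bases free of other genes of the same strand on 1 side, a distance chosen after the values were seen. On the plus strand outside the copied span, 5 tRNAs have such an open side, and 4 of them were the tRNAs above, with 103 to 562 reads in each library. The exception is mt-Tf, which lies at the start of the sequence as annotated and had 0 reads. The 5 plus-strand tRNAs that have genes close on both sides (mt-Tv, mt-Tl1, mt-Th, mt-Ts2 and mt-Tl2) had 0 to 3 reads per library. The 4 plus-strand tRNAs inside the copied span had 0 or 1 read, open side or not. On the minus strand the highest were mt-Tp for proline, with 17 to 67 reads, and mt-Tq for glutamine, with 14 to 40, and the other 6 had 10 reads or fewer. An open side did not go with higher counts there in every case. Of the 5 minus-strand tRNAs outside the span that have one, mt-Tp and mt-Tq were the highest, but mt-Ta had 3 to 9 reads, mt-Ty 0 to 5 and mt-Te 1 to 9. The pair with genes close on both sides, mt-Tn and mt-Tc, had 0 to 10. The sources used here do not say how reads that overlap 2 genes were counted, and the part of counting in this pattern was not tested.

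Minus-strand transcripts were scarce. ND6 and the 8 minus-strand tRNAs together made up 0.0509% ± 0.00667 of mitochondrial reads in Cre libraries and 0.0549% ± 0.00874 in Loxp libraries. Per kilobase, ND5 stood 8.57 ± 1.38 times as high as ND6 in Cre libraries and 9.10 ± 1.34 times as high in Loxp libraries. The library kit keeps the strand of the RNA, but the sources used here do not say whether counting used it, and without it reads from ND6 and from RNA of the opposite strand cannot be told apart.

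Between Cre and Loxp muscle, no mitochondrial transcript passed the test. In limma, fitted to the log2 values of the 13638 genes that reached 10 normalized reads in 4 or more libraries, 2 genes passed a Benjamini-Hochberg adjusted p of 0.05, which is 0.0147% of those tested. They were Acot2, with a log2 fold change of -2.13 (SE 0.18, adjusted p = 0.000962), and Kbtbd12, with 1.57 (SE 0.06, adjusted p = 6e-07), and neither is mitochondrially encoded. The low-value filter kept 19 of the 37 mitochondrial transcripts, being 11 protein genes, 2 rRNAs and 6 tRNAs. None of the 19 passed the limma test, and 0 had an unadjusted p below 0.05, which 2.91% of all tested genes had. Their log2 fold changes ran from -0.30 to 0.62, with 11 above 0 and 8 below and a median of 0.055. Among all genes tested 51.7% lay above 0 and the median was 0.0049. The 95% confidence intervals of the 19 reached from -0.82 at the lowest to 1.24 at the highest.

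**Figure D4:**
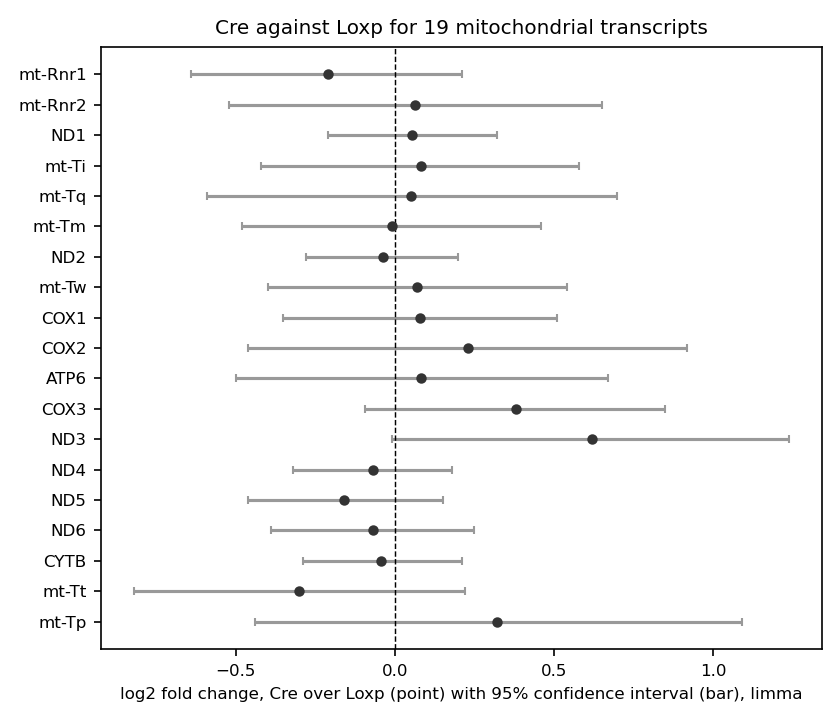
Log2 fold change of Cre over Loxp (x axis) for the 19 tested mitochondrial transcripts in genome order from the top, as points with 95% confidence intervals from limma (n = 4 each). Every interval includes 0, and ND3 at 0.62 is the farthest from it.

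Among the protein genes outside the copied span or partly within it, the groups overlapped throughout. COX1 had 557340, 682703, 860788 and 770266 normalized reads in Cre libraries, against 635529, 557726, 819735 and 697676 in Loxp libraries. The groups overlapped across nearly their whole range, and the log2 fold change was 0.079 (SE 0.20, 95% interval -0.35 to 0.51). For CYTB the log2 fold change was -0.042 (95% interval -0.29 to 0.21), for ND1 0.055 (-0.21 to 0.32), for ND2 -0.037 (-0.28 to 0.20) and for ND4 -0.068 (-0.32 to 0.18). A 2-fold difference, which is 1 on the log2 scale, lies outside each of these intervals. ND5 had 50468, 70161, 55511 and 72083 normalized reads in Cre libraries, against 60812, 68077, 63027 and 84448 in Loxp libraries, with a log2 fold change of -0.16 (95% interval -0.46 to 0.15). ND6 stood at -0.07 (95% interval -0.39 to 0.25).

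The 2 rRNAs did not move together in sign. mt-Rnr1 had 213547, 293356, 252495 and 267114 normalized reads in Cre libraries, against 341043, 364105, 196462 and 312586 in Loxp libraries. Of the Loxp libraries 3 were above every Cre library and replicate 3 was below them all. The log2 fold change was -0.21 (SE 0.19, 95% interval -0.64 to 0.21). mt-Rnr2 averaged 2798315 ± 350645 normalized reads in Cre libraries and 2662416 ± 179024 in Loxp libraries, with a log2 fold change of 0.065 (SE 0.27, 95% interval -0.52 to 0.65). The SE from limma also draws on a variance trend over all genes, so it does not rank the 2 rRNAs by spread. The SD of the 8 log2 values was 0.31 for mt-Rnr1 and 0.14 for mt-Rnr2.

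ND3 was the only one of the 19 whose groups did not overlap. It had 21.9, 20.8, 30.8 and 21.2 normalized reads in Cre libraries, against 15.1, 12.3, 14.3 and 18.4 in Loxp libraries. All Cre libraries were thus above all Loxp libraries, as they were for 0.924% of all genes tested. No member had every Cre library below every Loxp library, as 0.997% of all genes had. The log2 fold change was 0.62 (SE 0.29, 95% interval -0.0088 to 1.24), with an adjusted p of 0.9995 in limma. ND3 is singled out here after its values were seen, so the separation of its groups is a description. The values are 11 to 30 reads per library and nearly all of the sequence of ND3 is shared with Gm28438. That copy averaged 302 ± 95.5 normalized reads in Cre libraries and 243 ± 64.7 in Loxp libraries, with overlapping groups and a log2 fold change of 0.30 (SE 0.24, adjusted p = 0.9995 in limma). COX3, which lies beside ND3 with only mt-Tg between them and shares its sequence with Gm28437, had a log2 fold change of 0.38 (SE 0.22, adjusted p = 0.9995 in limma) with overlapping groups. Of the copies with at least 10 normalized reads on average, Gm28437, Gm28438, Gm28661, Gm29216, Gm13340, Gm10925, Gm10222 and Gm13341, 0 passed the limma test, and their log2 fold changes ran from -0.14 to 0.42.

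The remaining complex IV and ATP synthase genes, uncertain for the same shared sequence, and the tRNAs had wide intervals. COX2 had 32.0, 57.5, 85.6 and 79.3 normalized reads in Cre libraries, against 43.2, 39.2, 72.6 and 53.0 in Loxp libraries, with a log2 fold change of 0.23 (95% interval -0.46 to 0.92). ATP6 stood at 0.082 (95% interval -0.50 to 0.67). Of the 6 tested tRNAs, mt-Tp had the highest log2 fold change, 0.32 (-0.44 to 1.09), and mt-Tt the lowest, -0.30 (-0.82 to 0.22). ATP8 with 1 to 7 reads per library, ND4L and the other 16 tRNAs were not tested.

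The members also differed between animals of 1 group, and not all in the same animals. Cre replicate 1 was the lowest of the 8 libraries for COX1, ND2, ND4, ND5, ND6, CYTB and mt-Rnr2, with log2 values that deviated by -0.42 to -0.23 from the mean of the 8 libraries. For COX1 this was nearly a tie, with 557340 normalized reads there and 557726 in Loxp replicate 2. ND1 was nearly tied the other way, with 148334 in Cre replicate 1 and 147893 in Loxp replicate 2. COX1 was highest in Cre replicate 3, Loxp replicate 3, Cre replicate 4 and Loxp replicate 4. ND5 was highest in Loxp replicate 4 and low in Cre replicate 3. The ratio of COX1 to ND5 per kilobase was accordingly 13.0, 11.5, 18.3 and 12.6 in Cre libraries, against 12.3, 9.67, 15.4 and 9.75 in Loxp libraries. The groups overlapped, with means of 13.9 ± 3.03 in Cre and 11.8 ± 2.69 in Loxp libraries.

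Markers of fibre type varied between the same animals. Myh2, the myosin of oxidative fast fibres, had 4409, 6512, 50678 and 51585 normalized reads in Cre libraries, against 7832, 797, 73690 and 50366 in Loxp libraries. The 4 libraries with the most Myh2 were the 4 with the most COX1, a match picked out after the values were seen. It rests on a small step, from 697676 normalized reads of COX1 in Loxp replicate 4 to 682703 in Cre replicate 2. The match held for ND6 too, and for COX3 and mt-Tm, which had far fewer reads and small steps as well. For COX3 the step was from 128 normalized reads in Loxp replicate 3 to 126 in Cre replicate 2. For mt-Tm it was from 246 in Cre replicate 3 to 237 in Cre replicate 2. The match did not hold for ND1, ND2, ND4, ND5, CYTB or either rRNA, nor for any other tested member. mt-Rnr1 was highest in Loxp replicate 2, which had the least Myh2. The 3 genes listed for oxidative fast fibres (Myh2, Myh1 and Mb) summed to 87400 to 310996 normalized reads in Cre libraries and 56019 to 318689 in Loxp libraries. Myh1 was the largest part of the sum in every library. Myh1 and Mb are not particular to those fibres, so the sum does not measure them alone. The 7 slow fibre genes, among them Myh7 and Myl2, summed to 1610, 2201, 6930 and 17892 in Cre libraries, against 1858, 1697, 2496 and 1821 in Loxp libraries, so only Cre replicates 3 and 4 were high. The 4 glycolytic fast fibre genes, with Myh4 and Actn3, summed to 3147155 to 3897693 in Cre libraries and 3405069 to 4192463 in Loxp libraries. All markers on these lists were above 0 in at least 1 library. The 5 adipocyte genes, with Plin1 and Adipoq, summed to 2178 to 2680 in Cre libraries, against 2909, 10537, 5036 and 2136 in Loxp libraries. Loxp replicate 2, with the least Myh2, thus had the highest adipocyte sum. Sums of the 5 erythrocyte genes (with Hba-a1 and Hbb-bs) were 1593 to 2511 in Cre libraries and 1647 to 2603 in Loxp libraries, and those of the 4 macrophage genes (with Adgre1 and Cd68) 793 to 1966 in Cre libraries and 1295 to 1598 in Loxp libraries. Sums of the 3 endothelial genes (with Pecam1 and Cdh5) were 3901 to 5678 in Cre libraries and 4765 to 5478 in Loxp libraries, and those of the 3 fibroblast genes (with Pdgfra and Dcn) 22836 to 45145 in Cre libraries and 24358 to 38636 in Loxp libraries. The part of these tissue differences in the levels of the mitochondrial transcripts was not tested. Without Cre replicates 3 and 4, a choice made after seeing the data, COX1 had a log2 fold change of -0.12 and COX2 of -0.23, and again 0 mitochondrial transcripts passed the limma test.

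**Figure D5:**
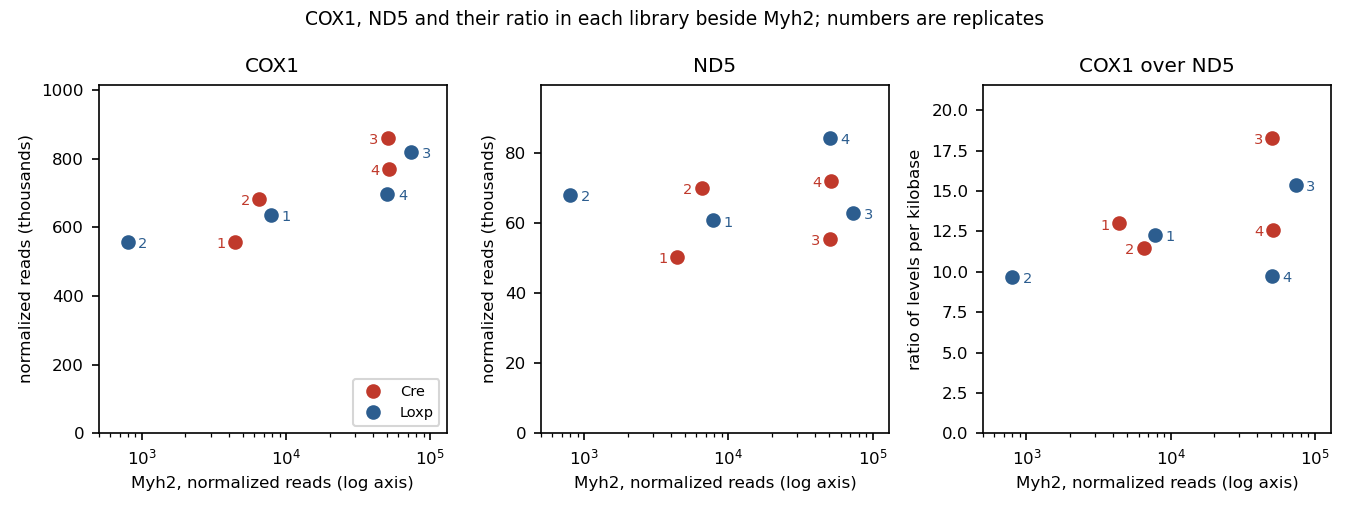
Normalized reads of COX1 and ND5 and the ratio of their levels per kilobase (y axes) against normalized reads of Myh2 (x axis, log axis) in each library, Cre red and Loxp blue, with the replicate number beside each point. Myh2 runs from 797 in Loxp replicate 2 to 73690 in Loxp replicate 3, and the COX1 to ND5 ratio is 18.3 in Cre replicate 3 and 9.67 in Loxp replicate 2.

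Nuclear genes that maintain, transcribe, process and translate the mitochondrial genome also showed no change that passed the test. The 6 lists held 130 entries, with Tfb1m and Mterf4 on both the transcription list and the RNA modification list. Each gene is counted once here, but under each of its lists in the counts by group. In all, 119 different genes were in the table and 117 were tested, and 0 passed in limma in either direction. An unadjusted p below 0.05 was found for 2 of them, Mgme1 and Ptcd2, against 2.91% of all genes. Log2 fold changes were above 0 for 81 and below 0 for 36, with a median of 0.046, beside 51.7% above 0 and a median of 0.0049 for all genes tested. By group, the median log2 fold change was -0.0012 for replication and upkeep of mitochondrial DNA (9 of 19 above 0), 0.075 for transcription (12 of 16) and 0.066 for RNA processing and stability (19 of 22). It was 0.032 for tRNA synthetases and formylation (15 of 23), 0.04 for RNA modification and rRNA maturation (15 of 25) and 0.047 for translation (12 of 14).

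Mgme1, an exonuclease that trims mitochondrial DNA ends, had 573, 553, 572 and 453 normalized reads in Cre libraries, against 442, 481, 505 and 406 in Loxp libraries. Its log2 fold change was 0.23 (SE 0.10, adjusted p = 0.9995 in limma), and the groups overlapped through Cre replicate 4. The other named genes of that list were lower in Cre libraries by their means, without passing. Dna2, a nuclease and helicase, averaged 14.7 ± 2.32 normalized reads in Cre libraries and 26.3 ± 10.8 in Loxp libraries (log2 fold change -0.70, SE 0.38, the farthest from 0 on any of the lists). Dguok, which phosphorylates deoxyguanosine for mitochondrial DNA synthesis, averaged 249 ± 35.0 in Cre libraries and 288 ± 16.8 in Loxp libraries (log2 fold change -0.22, SE 0.11). Ptcd2, a pentatricopeptide repeat protein known in mice for its part in the processing of the CYTB transcript, had 618, 747, 754 and 705 normalized reads in Cre libraries, against 627, 597, 630.4 and 616 in Loxp libraries. Its log2 fold change was 0.19 (SE 0.078, adjusted p = 0.9995 in limma), beside -0.042 for CYTB. Tfb2m, the factor that opens mitochondrial promoters for the polymerase, averaged 856 ± 59.6 normalized reads in Cre libraries and 775 ± 39.7 in Loxp libraries (log2 fold change 0.14, SE 0.073). Lars2, which loads leucine onto its mitochondrial tRNAs, averaged 772 ± 152 in Cre libraries and 1058 ± 306 in Loxp libraries (log2 fold change -0.43, SE 0.21). Ppargc1a, a coactivator of mitochondrial biogenesis, averaged 1372 ± 112 in Cre libraries and 1261 ± 119 in Loxp libraries (log2 fold change 0.12, SE 0.085). In each of these genes the groups overlapped.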

How the data were processed

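RNA-seq libraries from 8 white quadriceps were compared, 4 Cre and 4 Loxp. Per the submitters' processing notes, FastQC, cutadapt, STAR, HTSeq, DESeq2 and the build GRCm38 were used, with no role, order or version. The sources used here do not give the annotation used for counting, the read length or the treatment of reads that match several places. The values the authors deposited are log2(x + 1), another scale than counts, where x is reads over a library's own scaling factor. The scale was inferred from the values: below 1000 reads, 100.0% were within 0.1 of a whole multiple of 1 unit per library. That unit is the smallest value, refined by least squares on these same values. Above 1000 reads this was not checked, and recovered reads are the nearest whole multiple. Reads recovered so gave shares and totals.

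Names were matched to GENCODE M21 for coordinates, length and sequence. No genome was used, so shared stretches of 50 bases were searched in annotated transcripts only, where the design had named the genome. Intervals and limits at 0 cover counting error or library spread only, and limma draws the spread of each gene towards a trend over all genes.

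Cre and Loxp libraries were fitted with limma 3.58.1 under R 4.3.3 (variance trend, all 13638 genes kept by the filter, Benjamini-Hochberg adjustment, threshold 0.05), tested on simulated data. In 5 simulations 415 of 500 genes changed by 1 on the log2 scale were found, and 482 of 500 changed by 2. Both sizes were in the same simulations, which gave 45 false calls in all. The simulated spread followed a smooth trend, with no differences shared between genes, unlike the fibre type markers here. Named genes were all members, Acot2, the 3 nuclear genes of each list with the smallest p (of which some are described), copies with a mean of at least 10 normalized reads and the first 2 markers of each list. Kbtbd12 was named because 2 genes passed. Alternatives varied the pseudocount, filter, scaling, model and libraries. The members and lists were chosen with earlier results of these data known.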

Additional observations from a re-analysis of the deposited data

Results flagged for a closer look

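Within each group of 4 libraries, 3 values stood apart by the gap to the nearest library divided by the whole range. The limit was Dixon's 95% critical value, and 58 groups were checked, of which chance would be expected to flag 1 in 20, or 2.90. mt-Tw had 86.7 normalized reads in Cre replicate 1, against 159 to 169.9 in the other Cre libraries. CYTB had 100601 normalized reads in Cre replicate 1, against 130491 to 134094 in the other Cre libraries. ND3 had 30.8 normalized reads in Cre replicate 3, against 20.8 to 21.9 in the other Cre libraries.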

How the results depend on the processing

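In every setting run 2 genes passed in limma, Acot2 and Kbtbd12 in 20 of 20 settings, and 0 mitochondrial transcripts, 0 of their copies and 0 of the listed nuclear genes did. The lowest adjusted p of a mitochondrial transcript in any setting was 0.900. Leaving out 1 library at a time gave Acot2 a log2 fold change of -2.29 to -2.04. The replicate block of adjacent animal numbers again left 2 genes called. The correlations of deviations within these pairs were -0.083, -0.081, 0.188 and 0.151, so they did not exceed 0.1 in every pair, and 2 of 4 Cre libraries correlated best with their own partner. The numbers were not taken to pair the samples, and no more than this hint comes from the data.

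The share of reads from mitochondrial transcripts was 11.6% over 8 libraries, 3.28% for protein genes only, 17.4% with the 10 most abundant nuclear genes out of the total, and 11.4% to 11.9% without 1 library. The median level of the protein genes was 4117 normalized reads per kilobase and 4013 to 4272 without 1 library. It was 53573 per 1000 positions unshared over 50 bases (12 genes) and 38014 over 100 bases (13 genes); both include genes with 6 such positions or fewer.

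Log2 fold changes took the other sign in at least 1 setting for 14 of 19 transcripts, while ND3, COX3, ND5, mt-Rnr1 and mt-Rnr2 kept theirs in the settings run. With library weights, log2 fold changes were -0.041 for mt-Ti, -0.033 for mt-Tw, -0.0058 for COX1 and -0.042 for ATP6. Without Cre replicates 3 and 4, chosen after seeing the data, they were -0.033 for ND1, -0.078 for mt-Ti, -0.12 for mt-Tq, -0.14 for mt-Tw, -0.12 for COX1, -0.23 for COX2, -0.21 for ATP6, 0.055 for mt-Tt and -0.02 for mt-Tp. Without 1 library they ran from -0.17 to 0.19 for mt-Tq, -0.16 to 0.059 for ND6, -0.14 to 0.027 for ND4, -0.14 to 0.21 for mt-Tm, -0.085 to 0.058 for ND2, -0.081 to 0.057 for CYTB, -0.032 to 0.31 for mt-Ti, -0.028 to 0.24 for ATP6, -0.018 to 0.30 for mt-Tw, -0.015 to 0.19 for COX1 and -0.0074 to 0.13 for ND1. Those that kept their sign without 1 library also moved, from 0.49 to 0.71 for ND3, 0.22 to 0.51 for COX3, -0.24 to -0.059 for ND5, -0.41 to -0.11 for mt-Rnr1, 0.014 to 0.15 for mt-Rnr2, 0.059 to 0.52 for COX2, -0.51 to -0.096 for mt-Tt and 0.11 to 0.55 for mt-Tp. The cause was not tested. ND3, ATP8, ND4L and most tRNAs had at most 30 reads in a library, which limits what a difference in them could show.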
